A study of Mus musculus with 12 samples.

Results

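Of the 115000 chromatin regions counted in an ATAC-seq series of reprogramming mouse cells, 2167 (1.88%) were listed as accessible in the starting fibroblasts and at the first reprogramming stage but at neither later stage. A region was a member when it overlapped, by at least 1 bp, an interval of the mouse embryonic fibroblast (MEF) list and an interval of the Stage1 list, and no interval of the Stage2 or iPSC list. The members were therefore selected on the accessibility measured in these same libraries, and every change between stages given for them below is a description. Where a region is said to be called, rise or fall, the call comes from a fit over all regions and supports nothing beyond that region's own counts. ATAC-seq uses a transposase to cut and tag open chromatin, so the number of reads in a region is a measure of how open it is. There were 4 groups of 3 libraries each: unsorted MEF, Stage1 cells at day 6, Stage2 cells at day 6 plus 4 further days, and established induced pluripotent stem cells (iPSC). Stage1, Stage2 and iPSC cells were sorted as Oct4-GFP+, a reporter of the pluripotency gene Oct4, whereas MEF were not sorted. All groups shared a mixed C57BL/6 x 129 strain background, and the cells came from reprogramming that the labels call 3c enhanced. The labels do not say whether the 3 libraries of a group came from separate cultures, so the spread between them may be technical.

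Fibroblasts keep open a large set of enhancers at genes of the extracellular matrix, the cytoskeleton and growth factor signalling, many of which are bound by AP-1, TEAD and RUNX factors. Reprogramming factors close these somatic enhancers and open those of the pluripotency network, and somatic sites differ in when they close. Promoters of broadly expressed genes are often rich in CpG dinucleotides and tend to be open in most cell types. In a bulk population, fewer cells with an open site and less opening in each cell cannot be told apart.

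Total reads per library ranged from 14310290 to 32229388, and between 1034936 and 6261903 of them fell in the counted regions. The share in regions was 11.3% to 22.1% in MEF, 7.36% to 8.12% in Stage1, 5.31% to 6.91% in Stage2 and 4.49% to 5.25% in iPSC libraries, so the share of reads outside regions moved with the stage, and its part in the changes below was not tested. Regions near 5 MEF marker genes (Thy1, Twist2, Prrx1, Col1a1 and Pdgfrb) summed to 690 to 742 CPM (read counts scaled to library size) in MEF, 226 to 240 in Stage1, 228 to 261 in Stage2 and 253 to 299.8 in iPSC libraries. Reads spread evenly as estimated from outside regions would give these regions 79.5, 135, 171 and 204 CPM from MEF to iPSC. Those near 5 iPSC marker genes (Pou5f1, Nanog, Zfp42, Dppa5a and Esrrb) summed to 235 to 250 CPM in MEF, 654 to 732 in Stage1, 799 to 890 in Stage2 and 628 to 735 in iPSC libraries, where such background would give 69.6, 118, 149 and 179 CPM. The first list was highest in MEF and the second lowest in MEF, as the labels have it, with Stage1 and iPSC libraries overlapping in the second, and no member lay near any of these 10 genes. Regions near 13 blood genes summed to 669 to 705 CPM in Stage1 and 484 to 523 in MEF libraries, and those near 9 neural crest genes to 309 to 342 CPM in Stage1 and 192 to 210 in MEF libraries. The background would give 142 CPM in Stage1 and 83.8 in MEF for the blood genes, and 73.1 in Stage1 and 43.1 in MEF for the neural crest genes. Regions near 14 endothelial genes summed to 584 to 636 CPM in Stage1 and 862 to 882 in MEF libraries, and those near 11 muscle genes to 245 to 251 CPM in Stage1 and 209 to 225 in MEF libraries, with a background of 238 CPM in Stage1 and 140 in MEF for the endothelial and 82.4 in Stage1 and 48.6 in MEF for the muscle genes. The background so estimated was higher in Stage1 than in MEF for every list. Any part of such cells in the results was not tested.

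Among the 2167 members, 305 of the 2100 with a chromosome in the promoter table lay within 1 kb of a listed start site of a protein-coding gene. To show what such sites look like, the 250 bases upstream of the start site are given for 6 promoters that lie in members and belong to genes of the lists used below, read 5′ to 3′ on the gene's strand from RefSeq (build GRCm38.p6, which has the mm10 coordinates). They were picked after their values were seen, to range from CpG-poor to CpG-rich, and include falling, level and rising courses. Capitals mark matches to 13 short motifs searched on both strands. The 6 genes encode Grhl3, a transcription factor of surface epithelium; Gsc (goosecoid), a homeobox factor of the gastrula organizer; Ltbp1, which holds latent TGF-beta in the matrix; Pdgfa, a growth factor for mesenchymal cells; Tnc (tenascin C), a matrix glycoprotein; and Tns1 (tensin 1), which links integrins to actin.
Grhl3 (chr4:135573633-135573882, minus strand): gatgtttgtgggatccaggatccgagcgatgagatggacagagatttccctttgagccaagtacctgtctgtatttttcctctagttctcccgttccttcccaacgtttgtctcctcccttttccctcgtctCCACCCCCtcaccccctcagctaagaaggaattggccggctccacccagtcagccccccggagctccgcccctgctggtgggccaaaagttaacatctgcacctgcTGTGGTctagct
Gsc (chr12:104473237-104473486, minus strand): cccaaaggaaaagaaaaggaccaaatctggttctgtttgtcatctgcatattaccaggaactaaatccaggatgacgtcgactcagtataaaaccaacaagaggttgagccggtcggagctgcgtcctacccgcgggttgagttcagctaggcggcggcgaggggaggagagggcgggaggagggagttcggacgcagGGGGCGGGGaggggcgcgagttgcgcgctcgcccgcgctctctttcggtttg
Ltbp1 (chr17:75178531-75178780, plus strand): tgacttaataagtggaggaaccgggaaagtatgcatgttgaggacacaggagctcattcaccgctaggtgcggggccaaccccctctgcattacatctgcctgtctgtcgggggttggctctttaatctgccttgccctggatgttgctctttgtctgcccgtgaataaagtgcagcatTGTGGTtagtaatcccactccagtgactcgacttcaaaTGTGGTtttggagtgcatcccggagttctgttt
Pdgfa (chr5:138994945-138995194, minus strand): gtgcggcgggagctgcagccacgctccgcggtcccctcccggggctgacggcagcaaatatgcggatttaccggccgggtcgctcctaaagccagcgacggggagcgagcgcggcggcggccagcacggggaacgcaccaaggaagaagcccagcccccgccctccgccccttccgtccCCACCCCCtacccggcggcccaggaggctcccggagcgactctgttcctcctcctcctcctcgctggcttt
Tnc (chr4:64046937-64047186, minus strand): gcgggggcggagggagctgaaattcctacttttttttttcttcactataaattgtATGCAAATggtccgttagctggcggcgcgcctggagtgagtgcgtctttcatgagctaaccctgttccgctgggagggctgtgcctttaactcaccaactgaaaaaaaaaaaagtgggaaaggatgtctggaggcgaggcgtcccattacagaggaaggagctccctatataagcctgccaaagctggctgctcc
Tns1 (chr1:74124549-74124798, minus strand): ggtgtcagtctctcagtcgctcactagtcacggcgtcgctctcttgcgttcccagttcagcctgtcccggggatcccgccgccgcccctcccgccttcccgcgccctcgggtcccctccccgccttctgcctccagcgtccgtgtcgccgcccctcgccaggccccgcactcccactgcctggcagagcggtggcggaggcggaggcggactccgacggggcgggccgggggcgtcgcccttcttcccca
The stretch of Ltbp1 holds 2 matches to the RUNX letters TGTGGT and 7 CpG dinucleotides. In the stretch of Grhl3 there is 1 RUNX match and 1 match to the KLF letters GGGNGTGG, read on the other strand as CCACCCCC, and 8 CpG. The Tnc stretch holds the octamer ATTTGCAT on the other strand (ATGCAAAT) and 10 CpG. In Pdgfa the capitals mark 1 KLF match among 28 CpG, in Gsc they mark the SP1 letters GGGGCGGGG among 22 CpG, and Tns1 has none of the 13 motifs and 30 CpG. A match is a description of the letters and not a shown binding site.

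These 6 promoters covered different courses. Over the Ltbp1 promoter (chr17:75178101-75179000) the libraries gave 55.2, 52.3 and 56.8 CPM in MEF, 8.30, 19.6 and 10.1 in Stage1, 6.29, 12.3 and 6.77 in Stage2 and 6.28, 10.9 and 15.03 in iPSC. All Stage1 libraries lay far below all MEF libraries, with a fitted log2 fold change of -2.15 ± 0.23 (standard error, SE), and the later stages overlapped Stage1. The Grhl3 promoter (chr4:135573151-135573850) had 5.92, 6.36 and 6.20 CPM in MEF, 20.3, 23.7 and 26.7 in Stage1, 12.6, 11.6 and 17.3 in Stage2 and 10.2, 6.69 and 8.02 in iPSC. It was thus highest in Stage1, with no overlap with any other stage, and the log2 fold changes were 1.94 ± 0.28 for Stage1 against MEF and -0.79 ± 0.28 for Stage2 against Stage1. For the Pdgfa promoter (chr5:138994651-138995250) the values were 21.8, 24.3 and 21.5 CPM in MEF, 23.97, 33.0 and 21.6 in Stage1, 10.1, 15.02 and 16.5 in Stage2 and 12.6, 12.5 and 18.03 in iPSC. MEF and Stage1 overlapped, and every Stage2 library lay below every Stage1 library (log2 fold change -0.90 ± 0.27). At the Gsc promoter (chr12:104473051-104473400) the libraries gave 10.2, 5.81 and 6.68 CPM in MEF, 11.98, 9.28 and 8.64 in Stage1, 11.3, 10.2 and 12.03 in Stage2 and 7.06, 15.1 and 10.02 in iPSC, and each stage overlapped the next.

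The median accessibility of the members was highest in Stage1 on the scale used here, but not against MEF when libraries are scaled by all their reads, as given further on. Accessibility is given as CPM per kb of region, computed over reads in regions after trimmed mean of M values (TMM) scaling. The median over the 2167 members was 15.8, 15.6 and 15.5 CPM per kb in the MEF libraries, 18.4, 18.7 and 19.2 in Stage1, 13.7, 13.7 and 13.2 in Stage2 and 13.5, 13.7 and 13.9 in iPSC. No Stage1 library overlapped those of another stage, MEF stood above Stage2 and iPSC, and Stage2 and iPSC overlapped. Group means were 15.6 ± 0.152 in MEF, 18.8 ± 0.388 in Stage1, 13.5 ± 0.311 in Stage2 and 13.7 ± 0.209 in iPSC (SD, n = 3 each). By comparison, the 64720 regions of the MEF list alone had 16.4 CPM per kb in MEF and 4.50, 5.27 and 6.51 in Stage1, Stage2 and iPSC. The 3099 regions listed in MEF, Stage1 and Stage2 held 20.8, 22.6, 20.7 and 17.1 CPM per kb from MEF to iPSC, and the 12677 regions of all 4 lists held 35.6, 35.1, 31.7 and 28.9.

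**Figure D1:**
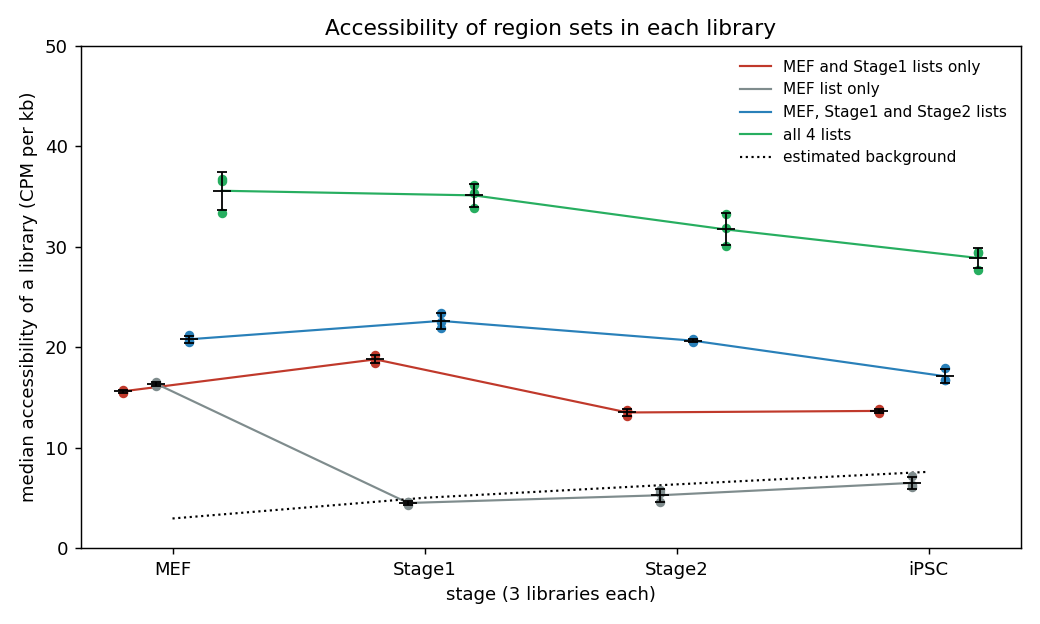
Median accessibility of 4 sets of regions in each of the 12 libraries, in CPM per kb of region, against the stage. Points are libraries, black bars the group mean ± SD (n = 3), and the dotted line the background estimated from reads outside regions; the members (red) reach 18.8 in Stage1 on this TMM scale, 13.5 in Stage2 and 13.7 in iPSC, and with whole-library scaling their median fold change of Stage1 against MEF turns negative.

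Absence from the Stage2 and iPSC lists did not mean absence of reads. Reads outside all regions, spread evenly over 2655 Mb of sequence, give a background of 2.96 CPM per kb in MEF, 5.02 in Stage1, 6.36 in Stage2 and 7.61 in iPSC libraries. This estimate lies above the median seen at MEF-only regions in the 3 later stages, so it may be too high there. The members' median was 5.79 ± 2.14 times this background in MEF, 3.75 ± 0.297 times in Stage1, 2.15 ± 0.307 times in Stage2 and 1.80 ± 0.121 times in iPSC (SD, n = 3 each). More than 2 times the background was reached by 99.6% of members in MEF, 98.4% in Stage1, 59.0% in Stage2 and 41.2% in iPSC. Over all regions these shares were 79.8%, 46.2%, 43.3% and 37.7%, so the members' share in iPSC was near the general one. Regions listed until Stage2 had 96.3% in Stage2 and 71.7% in iPSC, and MEF-only regions had 6.53% and 5.22%. At the edge of the rule, 33 members touched at most 100 bp of Stage1 interval, and their median went through 16.3, 18.2, 14.96 and 14.1 CPM per kb from MEF to iPSC. Just outside the rule, 34 regions with at most 100 bp of Stage2 interval held 24.2, 22.1, 17.1 and 16.8 CPM per kb. A Stage1 interval covered a median of 70% of a member's width and a MEF interval 100%.

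Between the first 2 stages the members moved in both directions. A filter on low counts kept 2025 members and dropped 142, which had a median of 8 reads in a Stage1 library. The filter is passed through the groups where a region is high, so counts over the 2025 describe these alone. In Stage1 against MEF, 426 (21.0%) were called lower and 606 (29.9%) higher at an adjusted p under 0.05 (edgeR quasi-likelihood, Benjamini-Hochberg over 71069 regions), while 40.4% and 40% of all tested regions were called lower and higher. The median log2 fold change was 0.25 for the members and 0.02 for all tested regions. This split depends on the scaling. When libraries were scaled by all their reads, the median of all regions moved to -0.70, that of members to -0.46, and 754 members were called lower against 98 higher. Of all 71069 tested regions, 34871 were called lower and 20868 higher with this scaling. Positive estimates of Stage1 against MEF that are smaller than this shift of the median of all regions, such as those of Ocln and Notum below, would turn negative on that scale. Those only just above it would lie near 0, such as 0.73 at Nfib, 0.74 at Tns1, 0.78 at Ngfr and 0.81 at 1 Camta1 region. Without the low count filter the median of members was 0.79, with 201 of 2167 lower and 1178 higher. Over all 114998 regions then tested the median was -0.25, with 39295 lower and 39669 higher. With libraries thinned to equal reads in regions the medians were 0.21 for members and 0.36 for all regions, so the order of these medians turned round.

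From Stage1 to Stage2 most members had lower values, the direction the rule favours. In Stage2 against Stage1, 333 (16.4%) were called lower, with a background of 5.62% of all tested regions called lower, and none was called higher, with 5.14% for all regions. At an unadjusted p under 0.05 edgeR counted 6 members higher and 657 lower, against 8218 and 8596 of all 71069 tested regions. The DESeq2 Wald test called 161 members lower and 0 higher, against 1557 and 1718 of all tested regions. The fitted log2 fold change was negative for 1702 of 2025 members (84.0%) and for 49.1% of all tested regions, and its median was -0.47 for members and 0.01 for all. In 730 members (36.0%) all 3 Stage2 libraries lay below all 3 Stage1 libraries, against 14% of all tested regions. Without Stage1 replicate 3 the number called lower was 201, against 2147 of all 75318 regions then tested. Without Stage2 replicate 2 it was 220, against 2428 of 75414. The rule used this contrast, so nothing is read from these counts.

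After Stage2 few members were called. In iPSC against Stage2, 2 were called lower and 2 higher, where 1.36% and 0.498% of all tested regions were called, and the median log2 fold change was 0.03. At an unadjusted p under 0.05, 74 of 2025 members were lower and 84 higher, against 6320 and 4540 of all 71069 tested regions.

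**Figure D2:**
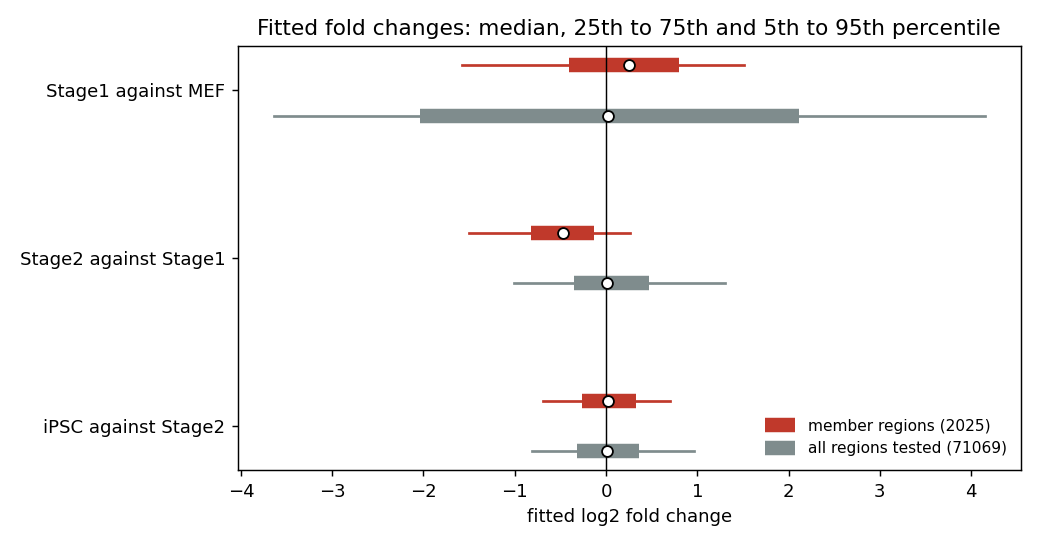
Fitted log2 fold changes of the 2025 members tested (red) and of all 71069 regions tested (grey) in 3 comparisons; the bar spans the 25th to 75th percentile, the thin line the 5th to 95th percentile and the circle marks the median. Member medians are 0.25, -0.47 and 0.03, and those of all regions are near 0.

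The members could be split by what they did before they left the list. The 426 called lower in Stage1 held 35.4, 15.8, 11.4 and 11.9 CPM per kb from MEF to iPSC. The 606 called higher held 10.7, 23.1, 14.4 and 14.6, and the 993 called neither way held 16.6, 18.3, 13.8 and 14.3. The split itself sets the order of the MEF and Stage1 levels, so that order is no finding. From Stage1 to Stage2 the median log2 fold change was -0.48 in the first group, -0.64 in the second and -0.37 in the third, with 80, 158 and 95 called lower. The split used the same Stage1 libraries that enter the second change, so these medians are not independent of it.

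Among members, the share near a start site varied between these groups. Of the regions called lower in Stage1, 20.5% lay within 1 kb of a listed start site, against 18.2% of those called neither way and 7.16% of those called higher. Their median widths were 800, 600 and 500 bp in this order, and all tested regions were not split in this way. With whole-library scaling 98 members were called higher, so the groups depend on the scaling. The difference in shares was not tested. The 302 tested members within 1 kb of a start site had a median log2 fold change of -0.17 in Stage1 against MEF and -0.34 in Stage2 against Stage1. The 1020 members over 10 kb from any end of a protein-coding gene span, 23 of which are also among the 302, had 0.35 and -0.57. Over all tested regions the medians at start sites were -0.16 and -0.13, and over 10 kb from a gene end they were -0.09 and 0.07. Start sites were listed for 17491 of 21896 protein-coding genes, with none used here for chromosome 18 and for long stretches of other chromosomes. Shares near a start site are therefore lower bounds, and longer distances are given to the ends of gene spans, for which the table has no such gaps.

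**Figure D3:**
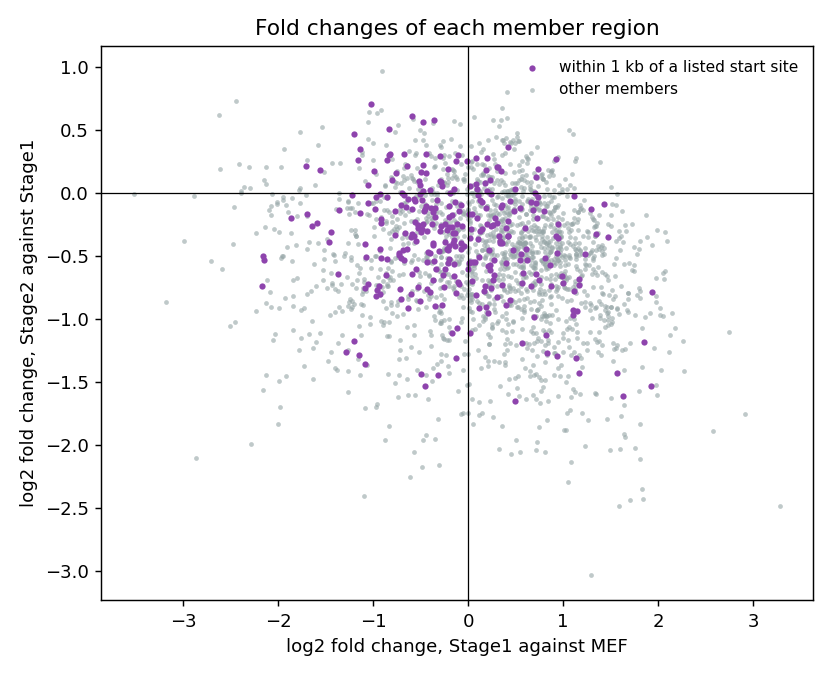
Fitted log2 fold change of each tested member in Stage2 against Stage1 (vertical) plotted over that in Stage1 against MEF (horizontal); purple points lie within 1 kb of a listed start site and grey points are the other members. Most points lie below the horizontal line at 0, and the purple points gather left of the centre with a median of -0.17 on the horizontal axis.

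In how often they lay at start sites, the members stood between the regions of the MEF list alone and those listed for longer. Within 1 kb of a listed start site lay 14.5% of members, against 2.98% of MEF-only regions, 36.5% of those listed until Stage2 and 58.5% of those in all 4 lists, and 11.4% of all regions. Within 1 kb of either end of a protein-coding gene span lay 19.2% of members, against 4.796% of MEF-only regions, 44.1% of those listed until Stage2, 64.1% of those in all 4 lists and 14.2% of all regions. Farther than 50 kb from any gene end lay 20.1% of members, against 39.96% of MEF-only regions, 9.003% of those listed until Stage2, 7.34% of those in all 4 lists and 32.1% of all regions. The median distance to a gene end was 10.9 kb for members and 21.2 kb for all regions. A share of 56.0% overlapped the span of a protein-coding gene, near the 54.9% of all regions. A region of all 4 lists lay within 5 kb of 12.7% of members, 7.09% of MEF-only regions and 15.6% of those listed until Stage2. On chromosome X lay 33 members (1.52%), against 2.37% of all regions, and 0 were on Y, where 20 of all regions lay. These shares are counts over the lists and were not tested.

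**Figure D4:**
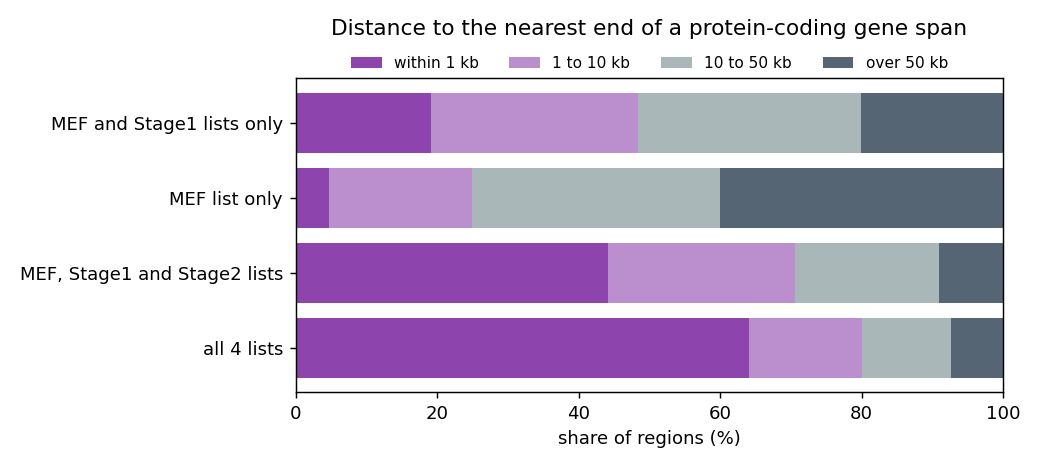
Share of regions, in percent, by distance to the nearest end of a protein-coding gene span, for the members and 3 other sets defined by the stage lists. The share within 1 kb is 19.2% for members, 4.796% for regions of the MEF list only, 44.1% for those listed until Stage2 and 64.1% for those in all 4 lists.

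Promoters in members were intermediate in CpG content as well. A window of 300 bases around the start site (250 before, 50 after) lay for at least 150 bases inside a member at 274 promoters of 250 genes. Their median was 18.5 CpG per window, against 12 for the 893 promoters in MEF-only regions, 22 for the 1186 listed until Stage2, 23 for the 8327 in all 4 lists and 13 for all 21262 promoters. The AP-1 letters TGANTCA, read by Fos and Jun factors, occurred in 5.84% of member promoters, against 16.0% of MEF-only promoters, 4.22% of those listed until Stage2, 3.55% of those in all 4 lists and 6.99% of all promoters. Letters of ETS factors (CCGGAAGT) occurred in 9.49% of member promoters, 1.68% of MEF-only ones, 12.2% of those listed until Stage2, 9.39% of those in all 4 lists and 5.15% of all.

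The other motifs ranged widely in the member promoters. SP1 letters (GGGGCGGGG) were in 20.4% of them and 15.4% of all promoters, KLF letters (GGGNGTGG) in 20.1% and 19.4%, RUNX letters (TGTGGT) in 16.4% and 14.97%, TEAD letters (CATTCC) in 14.96% and 13.6%, and the E-box CAGCTG in 17.2% and 15.6%. CTCF letters (CNAGNGGGC) were in 12.04% and 8.56%, NF-Y letters (CCAATCA) in 6.57% and 9.11%, C/EBP letters (TTGCNNAA) in 4.38% and 10.2%, CRE letters (TGACGTCA) in 3.28% and 2.23%, the octamer in 2.55% and 1.66%, and STAT letters (TTCCNGGAA) in 2.19% and 1.17%. KLF and SP1 letters can overlap in 1 stretch. Among tested members, the 58 regions with promoters under 10 CpG had a median log2 fold change of -0.63 in Stage2 against Stage1. The 183 with 10 or more had -0.27. The rule used this contrast and regions outside the members were not split by CpG, so nothing is read from the difference. Levels were 12.2 CPM per kb in Stage2 and 18.97 in Stage1 for the CpG-poor regions, and 16.8 in Stage2 and 20.3 in Stage1 for the others. Only promoter windows were searched.

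Single regions show how far the courses differ. The member with most CPM per kb in MEF lay inside Camk2d, which encodes a calcium and calmodulin dependent kinase (chr3:126831201-126832050). Its libraries gave 127, 106 and 114 CPM in MEF, 18.4, 27.8 and 25.2 in Stage1, 7.55, 4.10 and 6.01 in Stage2 and 10.2, 11.7 and 2.00 in iPSC. It fell at both steps without overlap, by log2 fold changes of -2.28 ± 0.18 in Stage1 against MEF and -1.99 ± 0.32 in Stage2 against Stage1. A region with no gene within 10 kb (chr2:148521701-148522650) did the same, with means of 115 CPM in MEF, 15.6 in Stage1, 3.63 in Stage2 and 5.44 in iPSC. The region inside Fstl1, a secreted glycoprotein of mesenchymal cells (chr16:37788001-37788850), had 86.5, 90.4 and 85.4 CPM in MEF, 12.9, 12.4 and 14.4 in Stage1, 6.29, 7.51 and 14.3 in Stage2 and 11.8, 11.7 and 20.04 in iPSC. It dropped at the first step and then overlapped across stages. Another region far from genes (chr9:24943601-24944400) had 86.6 ± 12.8 CPM in MEF and 7.67 ± 2.94 in Stage1, the largest fall at this step among members, with a log2 fold change of -3.52 ± 0.24.

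Other members were more open in Stage1 than in MEF and less open in Stage2. They were chosen as highest in Stage1 or for the largest fall into Stage2, so the high Stage1 level is no finding. Near the olfactory receptor gene Olfr9 (chr10:128980551-128981600) the libraries gave 30.1, 21.3 and 16.2 CPM in MEF, 72.8, 88.7 and 88.6 in Stage1, 23.3, 17.1 and 7.52 in Stage2 and 7.06, 5.02 and 3.01 in iPSC. It had the most CPM per kb of any member in Stage1, Stage1 stood apart from all other stages, and iPSC lay below Stage2 as well (log2 fold change -1.64 ± 0.38). Inside Rin3, which encodes a Ras and Rab effector of endocytosis (chr12:102326351-102327500), the values were 4.50, 6.08 and 9.06 CPM in MEF, 48.9, 54.7 and 74.9 in Stage1, 12.6, 10.9 and 8.27 in Stage2 and 15.7, 8.36 and 7.01 in iPSC. Stage1 exceeded MEF by a log2 fold change of 3.28 ± 0.24, the largest rise among members, and the log2 fold change of Stage2 against Stage1 was -2.49 ± 0.25. The deepest fall from Stage1 to Stage2 was inside Npepl1, an aminopeptidase gene (chr2:174116651-174117550), with 21.6, 14.4 and 22.4 CPM in MEF, 36.9, 47.4 and 55.5 in Stage1, 5.03, 9.56 and 2.26 in Stage2 and 7.85, 10.9 and 9.02 in iPSC (log2 fold change -3.03 ± 0.29 in Stage2 against Stage1). Further regions, one with no gene within 10 kb (chr2:122651851-122652550) and one near Tle1, a Groucho family corepressor (chr4:72104101-72104650), had means of 10.8 and 4.91 CPM in MEF, 31.9 and 14.8 in Stage1, and 5.49 and 2.65 in Stage2.

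Some members that were highly open in Stage1 were called at no step. The region at the paired start of Peg3 and Usp29, imprinted genes expressed from the paternal allele (chr7:6729351-6729800), had 28.7, 25.7 and 30.05 CPM in MEF, 24.9, 20.6 and 26.7 in Stage1, 11.3, 23.9 and 15.8 in Stage2 and 11.8, 16.7 and 22.0 in iPSC. The Zbtb14 promoter (chr17:69383501-69383950), of a zinc finger factor, had means of 27.5, 23.4, 17.9 and 15.1 CPM from MEF to iPSC. In both, Stage2 overlapped Stage1. Members with the largest positive estimates in Stage2 against Stage1 were not called either. Near Piezo1, a mechanically gated ion channel (chr8:122555851-122556950), the libraries gave 62.5, 51.1 and 40.5 CPM in MEF, 10.1, 9.28 and 9.36 in Stage1, 15.7, 15.02 and 17.3 in Stage2 and 10.2, 12.5 and 16.03 in iPSC (log2 fold change 0.73 ± 0.31 in Stage2 against Stage1). The highest estimate was 0.97 ± 0.39, at a region with no gene within 10 kb (chr15:37120251-37120800), where Stage2 had 11.4 ± 0.559 CPM and Stage1 5.65 ± 2.26, and the estimates inside Lrrc74a (chr12:86767801-86768250) and at Ndufc2 and Alg8 (chr7:97399751-97400650) were 0.80 ± 0.39 and 0.70 ± 0.32.

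**Figure D5:**
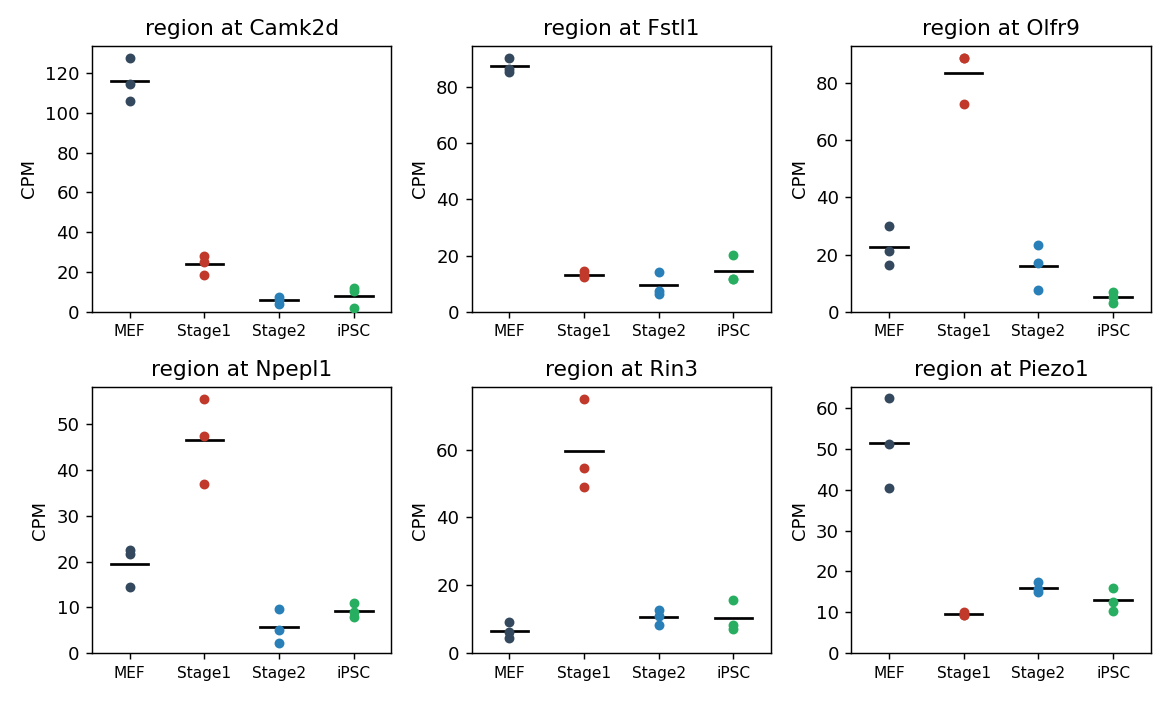
CPM in each of the 12 libraries (points) and the group mean (line) at 6 members named after the gene they lie in or near, by stage. Camk2d, Fstl1 and Piezo1 are highest in MEF (means 116, 87.4 and 51.4 CPM), and Olfr9, Npepl1 and Rin3 are highest in Stage1 (means 83.4, 46.6 and 59.5 CPM).

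Linking a region to every protein-coding gene it overlaps or lies within 10 kb of gave a gene to 1595 members (73.6%), and 409 members had more than 1. Of 18084 genes with any region, 1921 (10.6%) had a member, 187 had 2 or more and 23 had 3 or more. Of all linked regions, 2.10% were members. A gene with more linked regions has more chances to have a member, so counts of listed genes are not to be set against the 10.6%. Their linked regions are to be read against the 2.10%. The calls of listed genes below are to be read against the shares of all tested regions called, 40.4% lower and 40% higher in Stage1 against MEF and 5.62% lower in Stage2 against Stage1. A linked region says where the opening was and not whether the gene was expressed. The gene with most members was Vps13d, which encodes a lipid transfer protein, with 6 of 41 linked regions, followed by Camta1, a calmodulin-binding transcription factor, with 5 of 42, and Palld (palladin), an actin-bundling protein of stress fibres, with 4 of 50.

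The members of 1 gene did not share 1 course. In Palld, the region at chr8:61606551-61607350 had 53.3, 44.2 and 34.8 CPM in MEF, 10.1, 13.4 and 11.5 in Stage1, and 6.92, 9.56 and 8.27 in Stage2. The region at chr8:61745001-61745650 had 15.2, 10.2 and 9.54 CPM in MEF, 16.6, 12.4 and 19.4 in Stage1 and 5.66, 3.41 and 2.26 in Stage2. The first was called lower in Stage1 (log2 fold change -1.95 ± 0.24) and not after, and the second in Stage2 (-2.07 ± 0.39) and not before. In Vps13d, a region shared with Dhrs3, a retinaldehyde reductase (chr4:144929801-144930900), fell by both steps, with means of 83.8, 21.8 and 5.87 CPM in MEF, Stage1 and Stage2, while 2 others were called higher in Stage1. All 3 members of Chd9, a chromatin remodeler, were called lower at both steps: their means were 40.4, 14.9 and 7.66 CPM, 39.4, 15.05 and 6.23 CPM, and 57.1, 29.4 and 17.1 CPM in MEF, Stage1 and Stage2. In Camta1, 4 of the 5 were called higher in Stage1 and none was called in Stage2 against Stage1. The 3 members at Lgals1 (galectin 1) are also those of its neighbour Nol12, and the highest (chr15:78925901-78926900) had means of 89.5, 16.2, 12.2 and 14.0 CPM from MEF to iPSC. The 3 members in Pcdh7, a protocadherin, were all called lower in Stage1 and none in Stage2. Of the 3 in or near Lrrc8d, a volume-regulated anion channel subunit, 1 was called lower in Stage1, 2 in Stage2, and 1 failed the filter.

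Among genes of the cytoskeleton and cell adhesion, 10 of 34 had a member (29.4%), with 11 of 487 linked regions (2.26%), against 2.10% of all linked regions. Of the 11, 5 were called lower and 4 higher in Stage1 against MEF, and 2 lower in Stage2 against Stage1. Of all tested regions, 40.4% were called lower and 40% higher in the first of these comparisons. The region in Myh9, non-muscle myosin heavy chain (chr15:77798501-77799350), had 28.6, 12.4 and 13.0 CPM in Stage1, against 66.8, 63.9 and 61.05 in MEF. The region in Itga5, the fibronectin receptor subunit (chr15:103358501-103359550), had 20.3, 17.5 and 17.3 CPM in Stage1, against 46.4, 35.4 and 33.9 in MEF. MEF and Stage1 overlapped at neither, with log2 fold changes of -1.85 ± 0.21 and -1.09 ± 0.22. Of 2 members near Cnn2, an actin-binding calponin, 1 was called lower in Stage1 and neither was called after.

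For matrix genes, 6 of 28 had a member, with 7 of 353 linked regions (1.98%), against 2.10% of all linked regions. Of these members, 3 of the 5 that passed the filter were called lower in Stage1 against MEF, where 40.4% of all tested regions were. In Stage2 against Stage1, 2 were called lower. The region in Fbn1, which encodes the microfibril protein fibrillin 1 (chr2:125301951-125303100), had 63.7, 65.8 and 60.6 CPM in MEF, 17.5, 25.8 and 18.7 in Stage1, 12.6, 8.19 and 4.51 in Stage2 and 8.63, 11.7 and 9.02 in iPSC. It fell at both steps without overlap (-1.64 ± 0.20 and -1.23 ± 0.30). One of 2 members at Col15a1, a basement membrane collagen, failed the filter, and the other had a log2 fold change of 0.56 ± 0.36 in Stage1 against MEF, which was not called. Among mesenchymal genes 6 of 45 had a member, with 7 of 317 linked regions (2.21%). Of the 7, 2 were called lower and 1 higher in Stage1, and 2 lower in Stage2. A region shared by S100a4, a fibroblast calcium-binding protein, and 3 of its S100 neighbours (chr3:90604251-90604950) had means of 31.8, 12.8, 5.58 and 5.89 CPM from MEF to iPSC. Near Tbx15, a limb and skeletal T-box factor, 1 of 2 members (chr3:99233351-99234400) was not called in Stage1 and fell in Stage2, with 24.9, 18.5 and 6.77 CPM in MEF, Stage1 and Stage2. The Tnc promoter shown above fell in Stage1, with 11.2 ± 1.90 CPM, against 28.4 ± 2.82 in MEF (SD, n = 3 each).

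In the Hippo list, whose Tead and Yap factors act at fibroblast enhancers, 4 of 19 genes had a member. The members were 4 of 209 linked regions (1.91%), against 2.10% of all linked regions. Of the 4 regions, 3 were called lower and 1 higher in Stage1, and 2 lower in Stage2. At Axl, a receptor tyrosine kinase (chr7:25781551-25782550), the libraries gave 54.0, 48.9 and 44.4 CPM in MEF, 20.3, 12.4 and 17.3 in Stage1, and 8.18, 8.88 and 6.01 in Stage2. At Lats2, a kinase that inhibits Yap (chr14:57706801-57707800), they gave 52.4, 46.4 and 48.2 CPM in MEF, 7.37, 17.5 and 11.5 in Stage1, and 7.55, 6.83 and 1.504 in Stage2. Axl was separated at both steps, and Lats2 at the first step only, although both were called at each of these steps. The region in Vgll4, a Tead cofactor, was called lower in Stage1 alone (-1.07 ± 0.25). TGF-beta pathway genes had members at 5 of 25, with 7 of 201 linked regions (3.48%). Of the 7, 3 were called lower and 1 higher in Stage1, and 1 lower in Stage2. Smurf1, a ubiquitin ligase for Smad proteins, had a region (chr5:144898251-144899050) with means of 76.0, 14.0 and 6.96 CPM in MEF, Stage1 and Stage2. A region near Smad4, the common Smad, fell to 19.6 CPM in Stage1, against 32.5 in MEF. The 2 members near Id1, a target of BMP signals, were called at no step.

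Somatic transcription factors other than AP-1 had members at 4 of 25 genes, with 4 of 336 linked regions (1.19%), against 2.10% of all linked regions. The region in Nfia (chr4:98003601-98004650) had means of 49.7, 18.5 and 11.3 CPM in MEF, Stage1 and Stage2 and was called lower in Stage1. That in Nfib (chr4:82426601-82427250), of the same nuclear factor I family, had 9.74, 16.7 and 7.27 CPM, called higher in Stage1 and lower in Stage2. Its log2 fold change of 0.73 in Stage1 against MEF would lie near 0 with whole-library scaling. The region in Klf6, a zinc finger factor, was called lower in Stage1 only (-1.58 ± 0.23). Of the AP-1 family and partners 4 of 15 genes had a member, and none of these 4 regions was called at any of the 3 steps. The region in Fibp and within 10 kb of Fosl1, a Fos family gene, and of other genes (chr19:5460251-5460900), had 13.3, 16.6 and 15.3 CPM in MEF, 14.8, 9.28 and 10.8 in Stage1, and 7.55, 7.51 and 9.02 in Stage2. Those at Bach1 and Mafg, both partners in leucine zipper dimers, had 14.9 and 15.3 CPM in Stage1, against 10.2 and 14.7 in MEF.

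Among growth factor and receptor genes, Pdgfa and Met, the receptor of hepatocyte growth factor, were the 2 of 24 with a member. Their members were 2 of 208 linked regions of this list (0.962%), against 2.10% of all linked regions. The region near Met had means of 14.5, 10.6 and 5.77 CPM in MEF, Stage1 and Stage2, and no step was called. Of Wnt target genes 1 of 18 had a member (1 of 147 linked regions, 0.680%), at Notum, a secreted Wnt inhibitor, which was called higher in Stage1. Pluripotency genes had a member at 1 of 34, with 1 of 193 linked regions (0.518%). It lay in Apobec1, within 10 kb of Gdf3, a TGF-beta family ligand (chr6:122602101-122602700). Its means were 16.4, 13.1, 9.71 and 11.1 CPM from MEF to iPSC, and it was called at no step. Of primed epiblast genes 1 of 17 had a member (1 of 67 linked regions, 1.49%), the Gsc promoter above.

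Epithelial genes, which become active as fibroblasts lose their mesenchymal state, had members at 4 of 30, with 6 of 167 linked regions (3.59%). Of the 6, 3 were called higher and 1 lower in Stage1 against MEF, and 1, the Grhl3 promoter, lower in Stage2. All 3 regions linked to Krt8, a keratin of simple epithelia, were members. The one that overlaps its gene span (chr15:102002701-102003550) had 5.69, 7.46 and 12.9 CPM in MEF, 17.5, 19.6 and 23.8 in Stage1, 16.4, 15.02 and 18.04 in Stage2 and 18.8, 21.7 and 14.03 in iPSC. It rose in Stage1 (1.35 ± 0.28) and the later stages overlapped Stage1, although it is on neither later list. The region at Ocln, a tight junction protein, was called higher in Stage1 (0.67 ± 0.32), and that at Krt19 lower (-1.07 ± 0.27).

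Members also lay near some markers of other cell types. None of the 52 regions linked to 13 blood genes and none of the 30 linked to 11 muscle genes was a member. Of the regions linked to endothelial genes 2 of 81 (2.47%) were members, at Esam and near Sox18, and of those linked to neural crest genes 1 of 25 (4%), near Ngfr, the low-affinity nerve growth factor receptor, against 2.10% of all linked regions. The Esam region was called lower in Stage1, with 16.5 CPM, against 26.8 in MEF, and the Ngfr region higher, with 16.4 CPM in Stage1, against 9.59 in MEF. Of senescence and p53 genes 1 of 14 had a member (1 of 70 linked regions, 1.43%), near Pmaip1, called at no step.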

How the data were processed

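ATAC-seq was measured in 12 libraries, 3 for each of 4 groups taken from the labels. The authors deposited, for each library, read counts per region of a common set of 115000 regions, and a list of intervals per stage without scores. The submitters' processing notes name the build mm10 and, in no stated order, HTSeq 0.5.4p3, Bowtie2 2.2.6, DESeq2 1.12.4, SAMtools 0.1.19 and Picard 2.6.0; the peak caller, duplicate treatment and any shift of read ends are not given in the sources used here. Tested on the deposited lists, each stage list holds only intervals found in all 3 replicates, so a region leaves a list when 1 library lacks it, and interval ends are multiples of 50 bp.

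The 4 groups were fitted in 1 edgeR model (version 4.0.16, R 4.3.3) without covariates, so that they share 1 estimate of the spread. Counts were scaled by TMM and filtered by filterByExpr with a minimum count of 10 and a minimum total of 15. The count of 10 sets a CPM cutoff at the median library size that at least 3 libraries must reach. Other libraries of a tested region may hold fewer reads. Tests were two-sided quasi-likelihood tests, and a Benjamini-Hochberg adjusted p under 0.05 was called. Reads outside regions (77.7% to 95.5% of a library) and ambiguous reads (0.0311% to 0.230%) stayed out of library sizes and tests. On counts simulated for 19004 of the better covered regions, 27% of 2-fold and 100% of 4-fold rises set in Stage1 were recovered against MEF. Only a small share of those regions was changed, and the spread was fixed in advance. These shares are therefore not the power of the calls given above. CPM use the TMM-scaled library sizes; SE are those of the fitted log2 fold changes. Alternatives were DESeq2 1.42.0, its size factors, whole-library scaling, no filter, thinned libraries, a replicate block and each library left out.

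Genes, names and promoter sequences came from RefSeq tables of GRCm38.p6, which give no strand for gene spans, exons or introns. Genes named are, per list, up to 3 with most linked members (ties by MEF CPM), and the 10 genes with most members; regions named are the 4 highest in MEF, the 4 highest in Stage1, and the 4 largest and 4 smallest falls into Stage2. The members, gene lists and rules were chosen with earlier results of these data known.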

Additional observations from a re-analysis of the deposited data

How the results depend on the processing

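Of the 2167 members, 1751 had at least 50% of their width covered by a MEF and by a Stage1 interval, and 1983 had no Stage2 or iPSC interval within 1 kb. The median log2 fold change of Stage2 against Stage1 stayed negative in every alternative run, between -0.49 and -0.45 with a library left out and -0.77 with whole-library scaling, which took the median of all regions to -0.29 (to -0.70 in Stage1 against MEF and -0.24 in iPSC against Stage2). Its 333 members called lower became 161 with the DESeq2 Wald test, 313 with the replicate block, and 201 to 399 with a library left out. Of all 71069 tested regions, 3997 were called lower, 1557 with the DESeq2 Wald test and 3908 with the replicate block. In the fits that gave 201 and 399 members, 2147 of 75318 and 4948 of 73827 regions were called lower. In Stage1 against MEF the median of 0.25 reversed to -0.46 with whole-library scaling and was 0.79 without the filter, and 0.21 with DESeq2 size factors, thinned libraries and the DESeq2 Wald test, and 0.29 to 0.45 with a library left out; the cause was not tested. Members called lower there were 754 with whole-library scaling, 201 without the filter, 256 after thinning and 290 to 400.0 with a library left out. Those called higher, recorded after the data were seen, were 98, 1178 and 361, and 557 to 808 with a library left out. With whole-library scaling, without the filter and after thinning, 34871 of 71069, 39295 of 114998 and 15199 of 50374 regions were called lower. In the same order, 20868, 39669 and 21237 of these regions were called higher. In iPSC against Stage2, the 2 members called lower were 1 with whole-library scaling, without the filter, with the replicate block and with the DESeq2 Wald test, and 0 to 5 with a library left out, and the median was -0.22 with whole-library scaling, -0.020 without the filter and -0.0029 to 0.044 with a library left out. Same-numbered libraries of successive stages did not deviate together (correlations -0.026 to 0.066). With low counts such correlations can lie near 0 even for paired samples. Whether the replicate numbers pair the samples therefore cannot be told from them. Within 500 bp and 5 kb of a gene end lay 15.7% and 36.3% of members, against 19.2% within 1 kb. A search of AP-1 letters over whole regions was not run, since no genome was used here. Depth limits the calls: a tested member had a median of 13 reads in a Stage1 library.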
